A study of Mus musculus with 43 samples.

Results

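The vascular basement membrane is the thin sheet of extracellular matrix on which endothelial cells (EC) sit and which they share with pericytes and astrocyte endfeet. The 10 genes described here encode its main components: Fn1, Col4a1, Col4a2, Lama4, Lama5, Lamb1, Lamc1, Nid1, Hspg2 and Sparc. They were taken by symbol from a table of 54532 genes, and each symbol matched 1 gene. All 10 passed the filter on low counts, as did 29120 genes in all.

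The libraries came from EC of mice aged 2 months, sorted as live CD31+ CD45- CD11b- cells from cortex (21 libraries) or hippocampus (22 libraries). The recently wild-derived strains were CAST/EiJ and WSB/EiJ, with 6 libraries each. The long-inbred strains were C57BL/6J (6 libraries), 129S1/SvImJ (9), A/J (5), DBA/2J (5) and NOD/ShiLtJ (6). Female mice gave 16 libraries and male mice 27, and each title also carried the tag high or low, which is not defined in the sources used here. The tag was high in 15 of the female and 14 of the male libraries. The labels do not give the mouse, and libraries of both regions may share one, so the p-values measure the spread between these libraries.

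Levels are given in CPM, counts scaled to a common library total with TMM factors. Totals ran from 1626534 to 49372356 counts per library, with a median of 5790701. Depth moved with sex, with a median of 21242058 counts in female libraries (2731954 to 49372356) and 5257353 in male ones (1626534 to 10567966). Counts of rRNA-like genes made up 1.59% to 12.1% of female and 13% to 29.3% of male libraries, so that sex and this share cannot be told apart. The mean log2(CPM + 1) of 20 endothelial markers was 9.50 ± 0.29 (SD, n = 43), that of 10 pericyte markers 6.75 ± 0.59, of 10 astrocyte markers 6.14 ± 0.65, of 10 smooth muscle markers 3.52 ± 0.53, of 10 fibroblast markers 1.94 ± 0.58 and of 10 microglial markers 1.01 ± 0.48. Pecam1, which encodes CD31, stood at 446 to 1100 CPM in every library. The pericyte marker Pdgfrb was present in every library at 108 to 1028 CPM, whereas Lum of fibroblasts was at 0 counts in 36 of 43 libraries and Cx3cr1 of microglia in 21 of 43. In such bulk samples, fewer cells of a type and less RNA per cell cannot be told apart.

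Collagen IV is a trimer built from Col4a1 and Col4a2 chains, and it forms the covalent network of the membrane. Laminins are trimers of an α, a β and a γ chain, and those of EC hold α4 (Lama4) or α5 (Lama5) with β1 (Lamb1) and γ1 (Lamc1). Nidogen-1 (Nid1) links laminin to collagen IV, and perlecan (Hspg2) is a large heparan sulphate proteoglycan of the same sheet. Fibronectin (Fn1) is an integrin ligand of the vessel wall, and Sparc encodes a secreted protein that binds collagen.

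Levels were compared between genes per kb of exon, as CPM per kb averaged over 43 libraries. Sparc was highest at 503 ± 192 CPM per kb (SD), followed by Fn1 at 251 ± 80.3, Col4a1 at 216 ± 73.1 and Col4a2 at 191 ± 65.6. Lamc1 (56.2 ± 18.8) and Hspg2 (54.1 ± 16.9) formed the next pair, ahead of Nid1 (27.2 ± 9.54), Lama5 (23.4 ± 7.59), Lama4 (12 ± 5.53) and Lamb1 (3.59 ± 3.37). Not all neighbours in this order separated. Lamc1 exceeded Hspg2 in 20 of 43 libraries, Fn1 exceeded Col4a1 in 29, Nid1 exceeded Lama5 in 30, Col4a1 exceeded Col4a2 in 34, and Sparc exceeded Fn1 in 38. Col4a2 exceeded Lamc1 in 43 of 43 libraries, and Hspg2 exceeded Nid1 in 42. The laminin transcripts were thus unequal, with Lamc1 far above Lamb1 in per-length level.

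Among the 29120 genes tested, the mean CPM of 9 members lay at or above the 96.7 percentile, and that of Lamb1 at the 85 percentile. Fn1 had the highest mean CPM of the 10 (2933 ± 938 SD, n = 43). Counts behind these levels were lowest for Lamb1, with a median of 196 per library and 0 in 1 library, and for Lama4, with a median of 820. The median count of Fn1 was 18438. The share of the variance in log2(CPM + 1) that lay between strains was 68.6% for Sparc and 61.3% for Fn1, but 16.9% for Col4a1, 15.6% for Lama5 and 14.8% for Col4a2. Lamc1 (40.1%), Lama4 (40.0%), Nid1 (37.2%), Hspg2 (35.0%) and Lamb1 (25.0%) lay between.

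**Figure D1:**
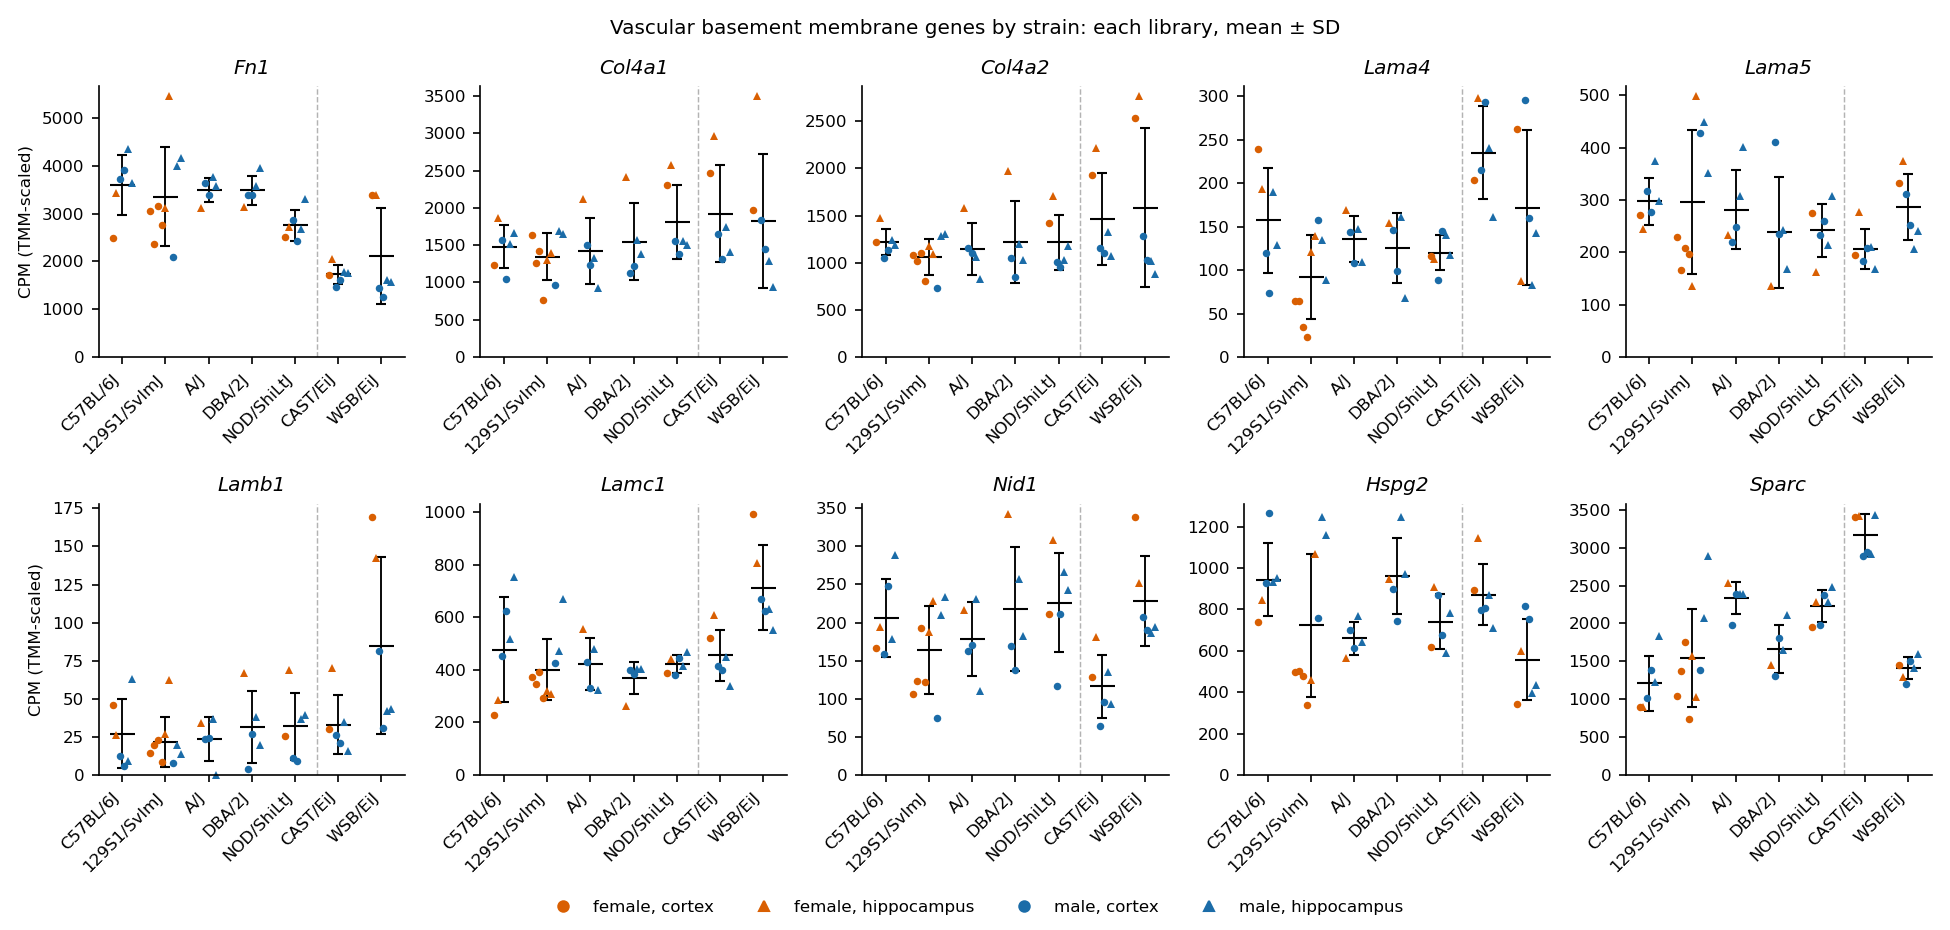
Each panel plots 1 gene, with strain on the x axis and TMM-scaled CPM on the y axis; points are single libraries, coloured by sex and shaped by region, and bars are the mean ± SD of a strain. A dashed line separates the long-inbred strains from CAST/EiJ and WSB/EiJ. Fn1 was low in CAST/EiJ and in male WSB/EiJ libraries, and Sparc stood highest in the 6 CAST/EiJ libraries (2892 to 3429 CPM).

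The genes lie at these positions of GRCm38 (GENCODE M21). Fn1 (ENSMUSG00000026193) is at chr1:71585520-71653200 on the minus strand. Col4a1 (ENSMUSG00000031502, minus strand, chr8:11198423-11312826) and Col4a2 (ENSMUSG00000031503, plus strand, chr8:11312805-11449287) lie head to head, and their annotated 5' ends overlap by 22 bases. Lama4 (ENSMUSG00000019846) is at chr10:38965515-39110188, Lamb1 (ENSMUSG00000002900) at chr12:31265234-31329644, Nid1 (ENSMUSG00000005397) at chr13:13437551-13512269 and Hspg2 (ENSMUSG00000028763) at chr4:137468769-137570630, all on the plus strand. Lama5 (ENSMUSG00000015647) is at chr2:180176373-180225859, Lamc1 (ENSMUSG00000026478) at chr1:153218922-153332786 and Sparc (ENSMUSG00000018593) at chr11:55394500-55423183, on the minus strand. Genes annotated over a member's span other than the collagen IV pair held at most 0.381% of that member's counts.

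The shared start of the collagen IV pair is shown because these members rose together in the comparison of the sexes. The upstream stretches of Lamb1 and Nid1, which passed the test in 1 strain each, and of Hspg2, which passed in none, are shown for comparison. Capitals mark the GC box (GGGCGG, or CCGCCC on the other strand) and the CCAAT box (CCAAT, or ATTGG). All are written on the plus strand of GRCm38.p6, from RefSeq, and end at the base before the annotated first exon, except the shared start.
Col4a1 and Col4a2, shared 5' end, chr8:11312805-11312826: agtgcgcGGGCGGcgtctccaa
Lamb1, chr12:31265043-31265233: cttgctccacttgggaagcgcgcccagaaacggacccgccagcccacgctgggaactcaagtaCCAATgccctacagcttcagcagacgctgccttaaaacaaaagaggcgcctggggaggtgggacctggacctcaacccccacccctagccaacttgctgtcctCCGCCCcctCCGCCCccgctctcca
Nid1, chr13:13437352-13437550: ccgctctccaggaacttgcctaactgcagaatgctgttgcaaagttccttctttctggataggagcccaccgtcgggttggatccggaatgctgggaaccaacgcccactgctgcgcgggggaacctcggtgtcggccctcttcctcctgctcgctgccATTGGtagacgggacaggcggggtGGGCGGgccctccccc
Hspg2, chr4:137468553-137468768: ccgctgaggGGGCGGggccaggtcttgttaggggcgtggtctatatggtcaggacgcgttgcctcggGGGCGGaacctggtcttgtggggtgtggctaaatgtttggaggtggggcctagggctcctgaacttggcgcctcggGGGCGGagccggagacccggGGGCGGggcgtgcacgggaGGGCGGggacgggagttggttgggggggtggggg
The shared 22 bases held 1 GC box. The stretch of Lamb1 held 2 GC boxes and 1 CCAAT box, that of Nid1 1 of each, and that of Hspg2 5 GC boxes and no CCAAT box. No printed match overlapped another.

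RefSeq windows of 250 bases upstream of a start were found for 7 of the 10 members, without Fn1, Lama4 and Lamc1. The Sparc window (chr11:55420081-55420330) lay inside the GENCODE span of the gene and held Sparc exons. Those of Col4a1 and Col4a2 lay wholly in exons of the partner gene. The windows of Lamb1, Nid1 and Hspg2 overlapped an exon of the gene itself. Their GC content was 74.4% for Col4a1, 73.6% for Col4a2, 72.4% for Lama5, 70.0% for Hspg2, 64.4% for Nid1, 62.0% for Lamb1 and 54.0% for Sparc, against a median of 52.4% over 32817 windows of the same length. Among all of these windows, 32.7% held a GC box on either strand, 33.8% a CCAAT box and 12.4% the letters TATAAA. The window of Lama5 held 4 GC boxes, and none of the 7 held TATAAA. A match is a description of the letters and not of a site in use.

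Fn1 was the member that separated the strains by origin most. Wild-derived EC held less Fn1 than long-inbred EC, by 42.2%, and the difference was present in both wild-derived strains. The study had singled out Fn1 on these same libraries, so the result is not independent evidence of that direction. The 5 A/J libraries stood at 3113, 3390, 3565, 3637 and 3766 CPM, and the 5 DBA/2J libraries at 3128, 3381, 3391, 3566 and 3958 CPM. C57BL/6J ran from 2488 to 4354 CPM with a median of 3688 (n = 6), 129S1/SvImJ from 2088 to 5448 with a median of 3107 (n = 9), and NOD/ShiLtJ from 2422 to 3312 with a median of 2693 (n = 6). The 5 long-inbred strains overlapped one another. CAST/EiJ ran from 1458 to 2048 CPM with a median of 1742 (n = 6), and WSB/EiJ from 1262 to 3396 with a median of 1597 (n = 6). All 6 CAST/EiJ libraries and the 4 male WSB/EiJ libraries lay below the lowest long-inbred library, and the female WSB/EiJ libraries, at 3381 and 3396 CPM, lay inside the long-inbred range.

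Over all libraries, Fn1 averaged 1921 ± 713 CPM in wild-derived (SD, n = 12) and 3324 ± 691 CPM in long-inbred EC (n = 31), a log2 fold change of -0.79 ± 0.12 (SE) with an adjusted p of 4.94e-06 in edgeR's quasi-likelihood test. Of all genes tested, 0.749% were called in this comparison, 0.508% as higher and 0.240% as lower, and 2 of the 10 members were called. Against the mean of the other strains, Fn1 was lower in CAST/EiJ (-0.83 ± 0.14, adjusted p = 5.09e-05) and in WSB/EiJ (-0.49 ± 0.14, adjusted p = 0.0368), where 1.35% and 2.41% of genes were called. Leaving out WSB/EiJ gave -0.97 and leaving out CAST/EiJ gave -0.65, both past the threshold.

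In WSB/EiJ the level of Fn1 differed with the sex of the library. Male wild-derived libraries ran from 1262 to 1773 CPM (median 1594, n = 8) and male long-inbred libraries from 2088 to 4354 CPM (median 3566, n = 19). These groups did not overlap, which held for 0.0240% of all genes in that direction, and the log2 fold change among male libraries was -1.16 (adjusted p = 1.50e-11). Female wild-derived libraries stood at 1719 and 2048 CPM in CAST/EiJ and at 3381 and 3396 CPM in WSB/EiJ, whereas female long-inbred libraries ran from 2368 to 5448 CPM (median 3077, n = 12). The origin difference of Fn1 was larger in male than in female libraries by 0.91 ± 0.20 on the log2 scale, which missed the threshold (interaction, adjusted p = 0.0531). Only 0.0206% of genes were called for this interaction, and no member was. The origin difference of Fn1 was called in 16 of 18 alternatives. It missed the threshold in cortex alone (-0.75, adjusted p = 0.0803) and with counts summed per strain, 2 strains against 5 (-0.74, adjusted p = 0.590).

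Lama4, the α4 chain of laminin made by EC, went the other way. It averaged 204 ± 77.2 CPM in wild-derived (SD, n = 12) and 123 ± 46.5 CPM in long-inbred EC (n = 31), a log2 fold change of 0.73 ± 0.19 (SE, adjusted p = 0.0434). Wild-derived libraries ran from 82.8 to 298 CPM (median 210) and long-inbred ones from 23.5 to 239 CPM (median 121), so the groups overlapped, with 5 wild-derived libraries above every long-inbred one. The call for Lama4 was lost in 11 of 18 alternatives, with a log2 fold change between 0.31 (hippocampus only, adjusted p = 0.817) and 1.12 (cortex only, adjusted p = 0.117), and positive in all 18. Without 129S1/SvImJ it was 0.59 (adjusted p = 0.123).

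None of the other 8 members passed the test for origin. Lamc1 differed by 0.48 ± 0.14 (adjusted p = 0.0789), Lamb1 by 1.14 ± 0.35 (adjusted p = 0.126), Col4a2 by 0.39 ± 0.13 (adjusted p = 0.185), Sparc by 0.38 ± 0.15 (adjusted p = 0.442) and Col4a1 by 0.32 ± 0.13 (adjusted p = 0.504). Lama5, Nid1 and Hspg2 were at -0.15 ± 0.16, -0.18 ± 0.18 and -0.16 ± 0.15, each with an adjusted p of 0.754. The median log2 fold change of the 10 members was 0.35, beside -0.38 over all genes tested and 0.03 over the 8679 genes with a mean of at least 10 CPM. No marker list of 11 cell types or vessel segments differed by origin (adjusted p of at least 0.321, permutation test). The wild-derived strains did differ from the rest singly. The smooth muscle list was higher in CAST/EiJ (0.70) and lower in WSB/EiJ (-0.77), and the pericyte list was higher in WSB/EiJ (0.78). The part of these cells in the Fn1 and Lama4 differences was not tested.

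**Figure D2:**
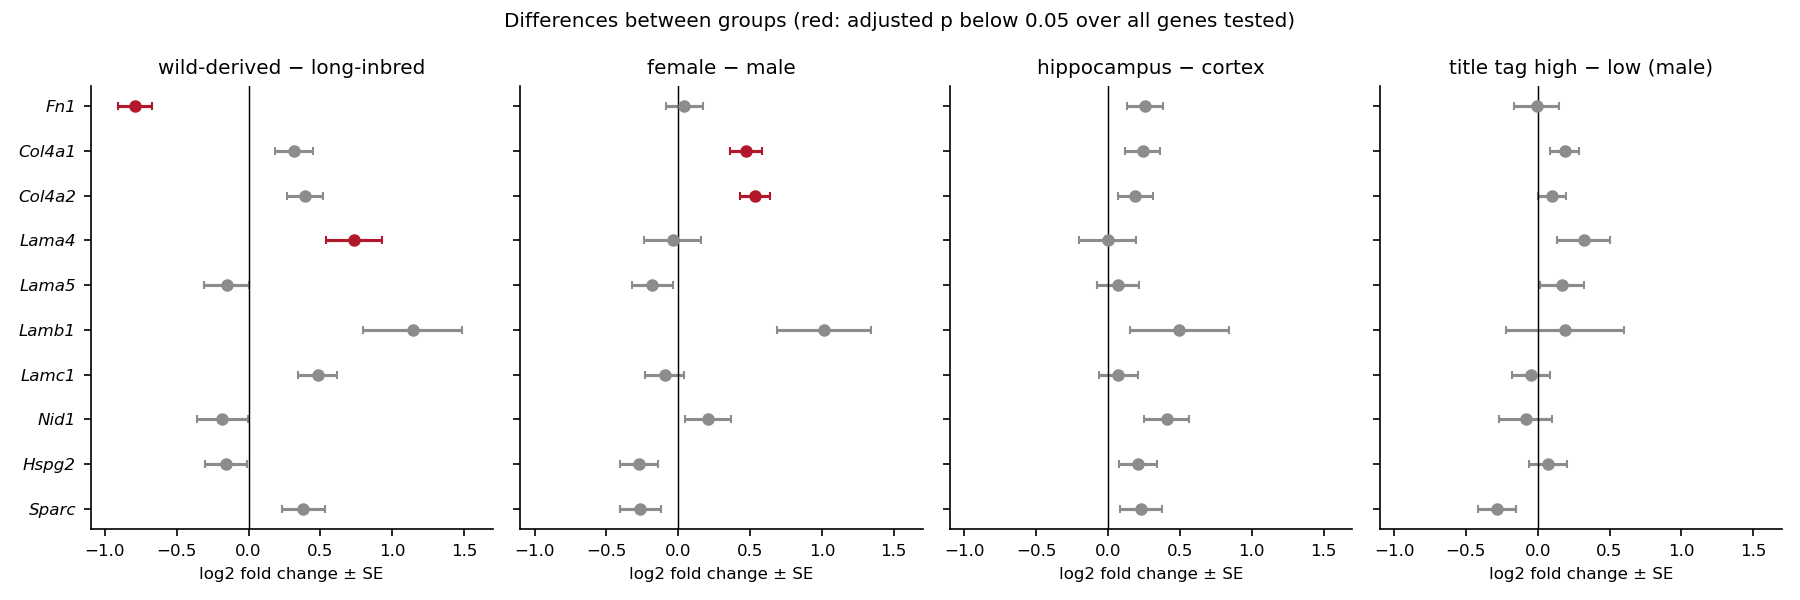
Points are log2 fold changes and bars their SE for the 10 genes in 4 comparisons, 1 a panel, with red for an adjusted p below 0.05 over all genes tested. Fn1 (-0.79) and Lama4 (0.73) passed for origin, Col4a1 (0.47) and Col4a2 (0.53) passed for sex, and no member passed for region or title tag.

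The test for any difference among the 7 strains called 4 of the 10 members, beside 2.68% of all genes and 6.68% of the genes with at least 10 CPM. These were Sparc (adjusted p = 2.75e-08), Fn1 (7.09e-06), Lama4 (0.0386) and Lamc1 (0.0390). On simulated counts this test made false calls above its nominal share, mainly in genes under 10 CPM, and the last 2 values lie near the threshold. Hspg2 (0.173), Nid1 (0.191), Lamb1 (0.211), Col4a2 (0.566), Col4a1 (0.589) and Lama5 (0.818) did not pass. Of 70 comparisons of a member in 1 strain with the mean of the other 6, 8 passed: 4 in CAST/EiJ, 3 in WSB/EiJ and 1 in C57BL/6J. Over all genes, 1.35%, 2.41% and 0.529% were called in these strains, in that order. Among genes with at least 10 CPM the shares were 2.59%, 5.24% and 0.749%. None of the 10 passed in 129S1/SvImJ, A/J, DBA/2J or NOD/ShiLtJ, where 1.46%, 0.254%, 0.192% and 0.185% of all genes were called.

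**Figure D3:**
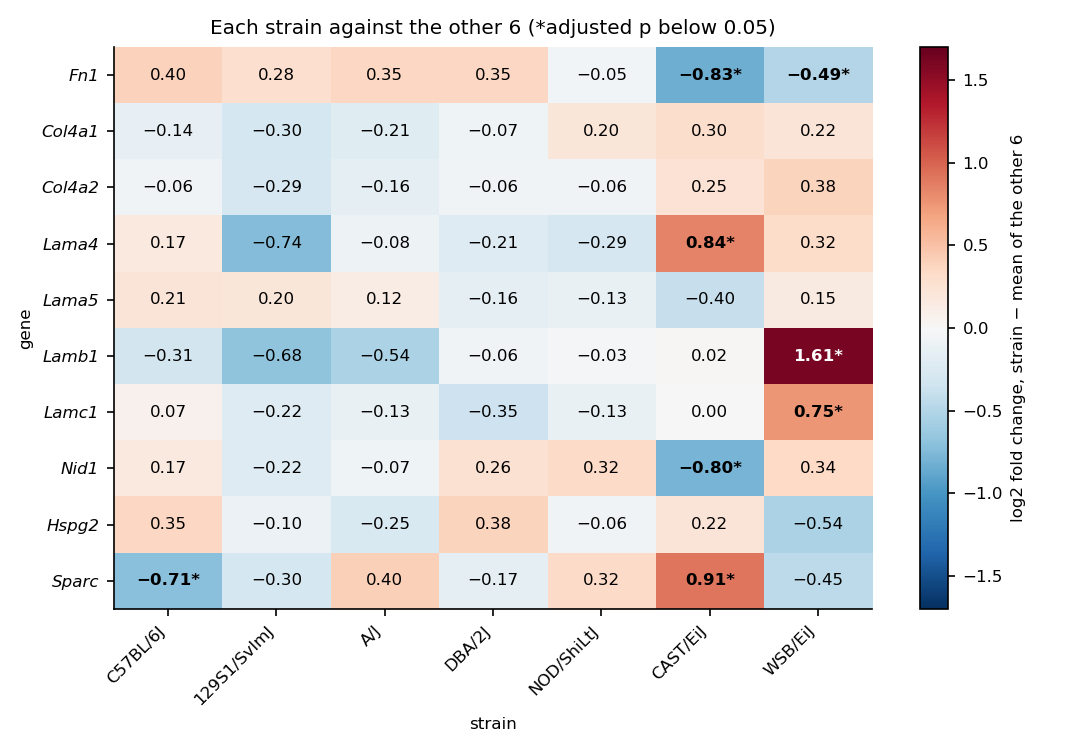
The grid shows the log2 fold change of each gene (rows) in each strain (columns) against the mean of the other 6, with red for higher, blue for lower and a star for an adjusted p below 0.05. The starred cells include Lamb1 in WSB/EiJ (1.61), Sparc in CAST/EiJ (0.91) and Fn1 in CAST/EiJ (-0.83).

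Sparc, whose product binds collagen, was highest in CAST/EiJ and lowest in C57BL/6J. The CAST/EiJ libraries ran from 2892 to 3429 CPM with a median of 3172 (n = 6), and every one lay above every library of another strain, the highest of which stood at 2891 CPM. Such a separation held for 0.216% of all genes in CAST/EiJ. C57BL/6J ran from 894 to 1835 CPM (median 1123, n = 6), WSB/EiJ from 1207 to 1600 (median 1428, n = 6) and 129S1/SvImJ from 734 to 2891 (median 1386, n = 9). The 5 DBA/2J libraries stood at 1305, 1445, 1649, 1807 and 2116 CPM and the 5 A/J libraries at 1976, 2386, 2391, 2391 and 2531 CPM, while NOD/ShiLtJ ran from 1950 to 2477 (median 2285, n = 6). A/J and NOD/ShiLtJ overlapped each other and lay on average between CAST/EiJ and the other strains. The log2 fold change was 0.91 ± 0.13 in CAST/EiJ (SE, adjusted p = 4.94e-07) and -0.71 ± 0.15 in C57BL/6J (adjusted p = 0.00550, with 0.529% of genes called). Every CAST/EiJ library lay above every WSB/EiJ library, as held for 1.88% of all genes, at 3168 ± 274 CPM in CAST/EiJ and 1411 ± 142 CPM in WSB/EiJ (SD, n = 6 each).

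Both calls for Sparc held among male libraries alone, at 0.71 (adjusted p = 6.52e-05) and -0.61 (adjusted p = 0.0201). The smooth muscle list was also higher in CAST/EiJ (4.12 ± 0.50, range 3.28 to 4.74, against 3.42 ± 0.47, range 2.46 to 4.32, in the other strains), with 8 of 10 genes higher (adjusted p = 0.0190, exact permutation test). The venous list was higher there too, at 7.47 ± 0.24 (7.11 to 7.79) against 6.70 ± 0.56 (5.18 to 7.84), with 5 of 6 genes higher (adjusted p = 0.0190, exact permutation test). By the list median the venous difference fell from 0.77 to 0.19 (adjusted p = 0.658, exact permutation test), and the smooth muscle difference was 1.39 (adjusted p = 0.0922, exact permutation test). Acta2 of smooth muscle was at 0 counts in 7 of 43 libraries and Tagln in 5. The part of these cells in the Sparc difference was not tested. No list differed in C57BL/6J.

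Among laminin transcripts, Lama4 was higher in CAST/EiJ, while Lamb1 and Lamc1 were higher in WSB/EiJ. Lama4 ran from 161 to 298 CPM in CAST/EiJ (median 228, n = 6), a log2 fold change of 0.84 ± 0.23 (adjusted p = 0.0358). In 129S1/SvImJ it ran from 23.5 to 157 CPM (median 88.1, n = 9), and 4 of the 9 libraries lay below every library of another strain, with a log2 fold change of -0.74 ± 0.22 that missed the threshold (adjusted p = 0.0617). These 4 were all female cortex libraries, at 23.5, 34.3, 64.5 and 64.8 CPM. Their endothelial list stood at 8.78, 8.81, 9.08 and 9.57, beside 9.02 or more in the other libraries, and their neuron list at 5.76, 6.30, 5.27 and 3.63. The part of other cell types in these low values was not tested. WSB/EiJ spread widely for this gene, from 82.8 to 296 CPM. The call in CAST/EiJ was lost among male libraries (0.76, adjusted p = 0.108) and in DESeq2 (0.79, adjusted p = 0.0678). Lama5, the other α chain, ran from 168 to 277 CPM in CAST/EiJ (median 201) and passed in no strain.

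Lamc1, the γ chain common to most laminins, ran from 550 to 993 CPM in WSB/EiJ with a median of 651 (n = 6). The 5 DBA/2J libraries stood at 262, 383, 400, 402 and 405 CPM and the 5 A/J libraries at 322, 330, 428, 480 and 556 CPM. The other strains ran from 226 to 754 CPM in C57BL/6J, from 292 to 668 in 129S1/SvImJ, from 381 to 467 in NOD/ShiLtJ and from 339 to 610 in CAST/EiJ. WSB/EiJ was highest on average, with the female libraries (808 and 993 CPM) above every other library and the male ones inside the range of the rest. The log2 fold change was 0.75 ± 0.16 (SE, adjusted p = 0.00247). Lamb1, the β chain, was also highest in WSB/EiJ, at a lower level, with female libraries at 143 and 169 CPM and male ones at 30.6 to 81.4 CPM. Libraries of the other strains ran from 0 to 69.9 CPM, so 3 of the 6 WSB/EiJ libraries lay above them all. Its log2 fold change in WSB/EiJ was 1.61 ± 0.41 (SE, adjusted p = 0.0154).

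Among male libraries alone these WSB/EiJ values were 0.46 for Lamc1 (adjusted p = 0.187) and 1.24 for Lamb1 (adjusted p = 0.335), no longer past the threshold. All 10 pericyte markers were higher in WSB/EiJ, with the list at 7.43 ± 0.48 (6.81 to 8.03) against 6.64 ± 0.54 (5.41 to 7.86) in the other strains (adjusted p = 0.0190, exact permutation test). The smooth muscle list was lower there, at 2.86 ± 0.27 (2.46 to 3.11) against 3.63 ± 0.48 (2.5 to 4.74), with 4 of 10 genes higher (adjusted p = 0.0128, exact permutation test). The arterial list was lower as well, at 4.06 ± 0.40 (3.44 to 4.56) against 4.75 ± 0.54 (3.42 to 5.73), with 2 of 8 genes higher (adjusted p = 0.0391, exact permutation test), but not by the list median (-0.37, adjusted p = 0.467, exact permutation test). WSB/EiJ libraries were also shallow, with 1626534 to 5331064 counts. Over the 43 libraries, Lamc1 correlated with the pericyte list at r = 0.65, a description of points that share libraries and depth. The part of pericyte RNA in the laminin differences was not tested.

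Nid1, the linker between laminin and collagen IV, was lower in CAST/EiJ, where it ran from 64.0 to 181 CPM with a median of 112 (n = 6). The other strains averaged between 164 ± 58.0 CPM in 129S1/SvImJ (SD, n = 9) and 228 ± 59.0 CPM in WSB/EiJ (n = 6). The ranges of the long-inbred strains overlapped that of CAST/EiJ, and the lowest WSB/EiJ library, at 186 CPM, lay above it. The log2 fold change was -0.80 ± 0.22 (SE, adjusted p = 0.0476), and -1.0 among male libraries (adjusted p = 0.0170). Between these strains, every CAST/EiJ library lay lower for 0.433% of all genes.

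Hspg2, the perlecan core protein, passed in no strain. It was lowest on average in WSB/EiJ, at 557 ± 196 CPM (SD, n = 6, log2 fold change -0.54 ± 0.18, adjusted p = 0.0939), and highest in DBA/2J, at 962 ± 183 CPM (n = 5). In 129S1/SvImJ it ranged from 340 to 1245 CPM, nearly the whole range of the series. The 6 female libraries of that strain averaged 557 ± 257 CPM and the 3 male ones 1054 ± 261 CPM (SD).

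The collagen IV genes did not pass the test for strain, but both were higher in female than in male EC. Female libraries were also deeper, with a median of 21242058 against 5257353 counts, and the part of depth was not tested. Sex also went with the title tag, which was high in 15 of 16 female and 14 of 27 male libraries. Female Col4a1 ran from 768 to 3499 CPM with a median of 1917 (n = 16), and male from 926 to 1832 CPM with a median of 1447 (n = 27). Female Col4a2 ran from 808 to 2771 CPM with a median of 1447 (n = 16), and male from 732 to 1323 CPM with a median of 1068 (n = 27). For each gene, 9 of the 16 female libraries lay above the highest male library. For Col4a1, 1 female library lay below the lowest male one, and the remaining libraries of both genes overlapped. The log2 fold change was 0.47 ± 0.11 for Col4a1 (SE, adjusted p = 0.00551) and 0.53 ± 0.11 for Col4a2 (adjusted p = 0.000416), beside 2.85% of all genes called and 8.79% of those with at least 10 CPM. Col4a1 was called in 9 of 15 alternatives and Col4a2 in 14 of 15. Among libraries titled high alone, the call of Col4a1 was lost. None of the other 8 members passed, Lamb1 coming nearest at 1.01 ± 0.33 (adjusted p = 0.0806), then Hspg2 at -0.27 ± 0.13 (adjusted p = 0.353).

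The female collagen IV level was not the same across strains. In 129S1/SvImJ, the 6 female libraries averaged 1299 ± 292 CPM for Col4a1 and the 3 male ones 1433 ± 409 CPM, while Col4a2 stood at 1044 ± 126 and 1104 ± 323 CPM. In the other 6 strains the female mean was higher for both genes. It rested on 1 hippocampus library each in A/J and DBA/2J and on 2 libraries in each of the others. In C57BL/6J the sexes overlapped for Col4a1, at 1236 and 1862 CPM in female and 1050 to 1667 CPM in male libraries. The female mean was highest in WSB/EiJ, where Col4a2 stood at 2530 and 2771 CPM in female and 875 to 1279 CPM in male libraries. Without 129S1/SvImJ the log2 fold changes were 0.74 and 0.80. Whether the sex difference differed between strains was not tested. The interaction with origin was 0.81 ± 0.20 for Col4a2 (adjusted p = 0.218) and 0.62 ± 0.23 for Col4a1 (adjusted p = 0.978).

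Scaling bore on the comparison of the sexes. With the size factors of DESeq2 the median of all genes moved from -0.12 to -0.24, Col4a1 from 0.47 to 0.33 (adjusted p = 0.0851) and Col4a2 from 0.53 to 0.39 (adjusted p = 0.0138). The calls over all genes, 745 higher and 85 lower in female EC under TMM, became 430 higher and 155 lower. Once the rRNA-like share entered the fit, Col4a1 stood at 0.86 (adjusted p = 0.0439) and Col4a2 at 0.80 (adjusted p = 0.0609). No marker list differed by sex (adjusted p of at least 0.321, permutation test).

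The collagen IV transcripts moved together across libraries. Their log2 levels correlated at r = 0.88 over 43 libraries, and at 0.89 after the strain means were subtracted, the highest of 45 member pairs. These pairs had a median r of 0.24, from -0.33 for Fn1 with Lama4, and 33 of 45 were positive. Per kb, Col4a1 stood at 1.15 times Col4a2 at the median (log2 ratio 0.20, SD 0.21, n = 43), with strain means between 0.07 ± 0.33 in WSB/EiJ and 0.39 ± 0.12 in NOD/ShiLtJ (SD, n = 6 each).

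**Figure D4:**
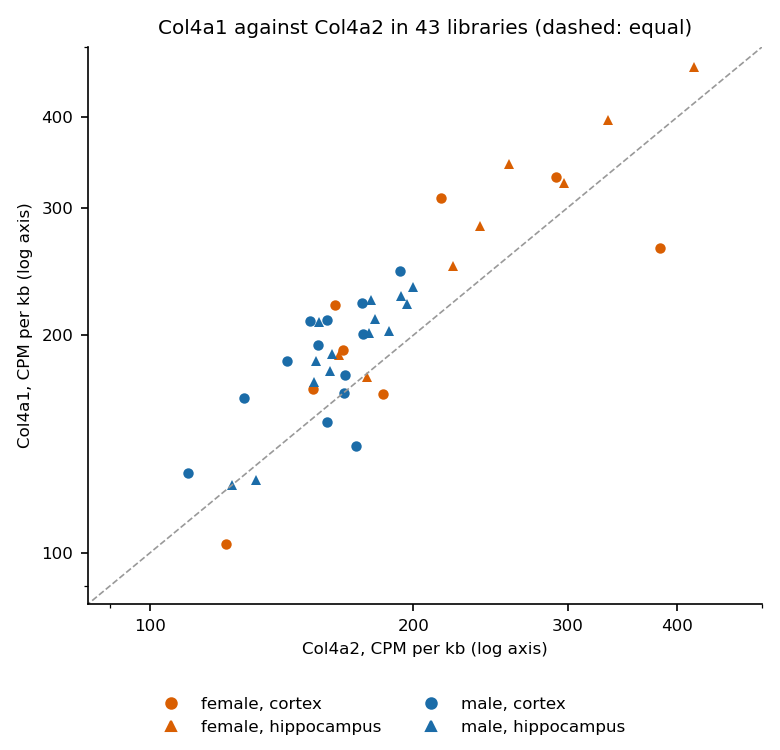
Each point is 1 library, with Col4a2 on the x axis and Col4a1 on the y axis, both in CPM per kb of exon on log axes. The points follow the dashed line of equal levels and 34 of 43 lie above it. The highest points are female libraries.

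Ratios between members within a library take out the overall share of the list. The ratio of Lama4 to Lama5 had a median log2 of -1.15 per kb over 43 libraries, so the Lama5 transcript was the more abundant. In CAST/EiJ these transcripts were near equal, at 0.09 ± 0.19 (SD, n = 6). 129S1/SvImJ stood at -1.87 ± 0.81 (n = 9) and the other strains between -1.12 and -0.96 on average. Nid1 to Lamc1 was -1.77 ± 0.36 in CAST/EiJ and -1.40 ± 0.10 in WSB/EiJ (SD, n = 6 each), against -0.87 ± 0.53 in long-inbred libraries (n = 31). Fn1 to Col4a1 was -0.59 ± 0.44 in wild-derived (n = 12) and 0.52 ± 0.48 in long-inbred libraries (n = 31), with NOD/ShiLtJ the lowest long-inbred strain at -0.01 ± 0.43. Lamb1 to Lamc1 was -4.21 at the median over the 42 libraries in which Lamb1 had a count. These ratios are descriptions without a test.

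**Figure D5:**
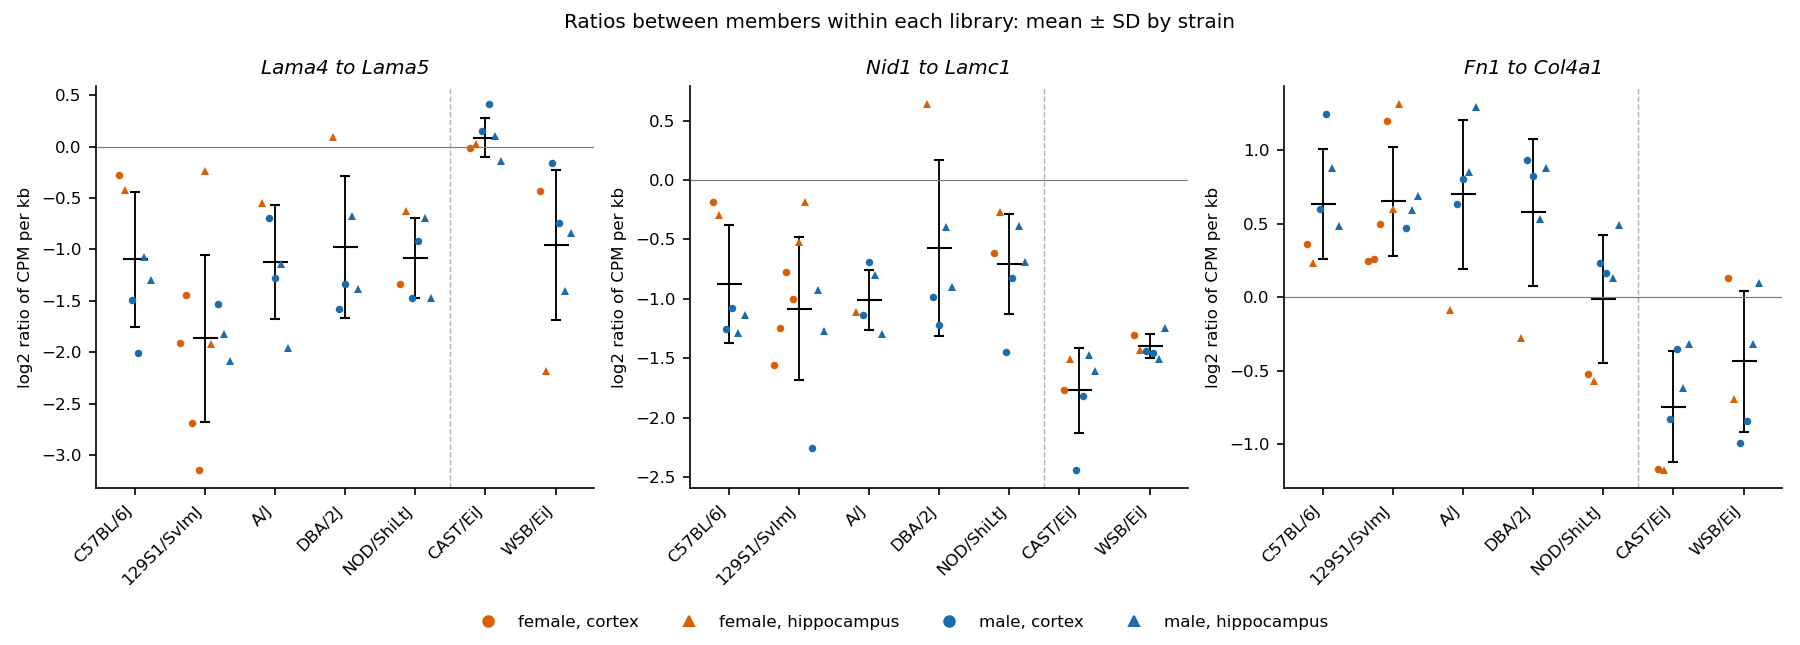
Panels plot the log2 ratio of CPM per kb of Lama4 to Lama5, Nid1 to Lamc1 and Fn1 to Col4a1 against strain, with a point for each library and the mean ± SD of each strain. CAST/EiJ stands near 0 for Lama4 to Lama5 (0.09) and lowest for Fn1 to Col4a1 (-0.74), and the dashed line sets off CAST/EiJ and WSB/EiJ.

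Region changed no member past the threshold. The largest difference among the 10 was that of Lamb1 (0.50 ± 0.35, adjusted p = 0.669), followed by Nid1 at 0.41 ± 0.15 (adjusted p = 0.669), with 162 ± 62.7 CPM in cortex (SD, n = 21) and 215 ± 60.0 CPM in hippocampus (n = 22). Fn1 averaged 2667 ± 824 CPM in cortex and 3186 ± 988 CPM in hippocampus (0.26 ± 0.13, adjusted p = 0.669). Unadjusted p-values were under 0.05 for Nid1 (0.0102) and Fn1 (0.0448). The log2 fold change was positive for 9 of the 10 members, with a median of 0.22 beside 0.03 over all genes. Of the genes with a mean of at least 10 CPM, 50.6% were positive. The members were read from the same libraries, so they are not separate observations. Among 18 pairs of cortex and hippocampus groups that share strain, sex and title tag, hippocampus was higher in 16 for Fn1, 15 for Sparc, 14 for Nid1 and 9 for Lama4. Of all genes, 0.0755% were called between regions. For Lama4 the origin difference was larger in cortex (238 ± 54.2 CPM in 6 wild-derived and 108 ± 54.7 CPM in 15 long-inbred libraries) than in hippocampus (169 ± 85.4 and 136 ± 33.7 CPM), an interaction of -0.82 ± 0.39 that did not pass (adjusted p = 1).

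The title tag called no member among 27 male libraries, beside 1.06% of all genes. Sparc came nearest, at 1837 ± 622 CPM in 14 high and 2243 ± 612 CPM in 13 low libraries (-0.28 ± 0.13, adjusted p = 0.559). With strain and region as covariates it stood at -0.30 with an adjusted p of 0.00386. The other 9 members lay between -0.08 for Nid1 and 0.32 for Lama4. Marker lists moved with the tag: the endothelial list was higher in high libraries (9.62 ± 0.25, 9.02 to 9.90, against 9.31 ± 0.11, 9.15 to 9.56; 18 of 20 genes higher; adjusted p = 0.0128, permutation test). The astrocyte list was lower in them (5.84 ± 0.61, 4.82 to 6.69, against 6.73 ± 0.53, 6.09 to 7.82; 0 of 10 genes higher; adjusted p = 0.0128, permutation test), as were the neuron list (3.66 ± 0.76 against 4.61 ± 0.67, adjusted p = 0.0210, permutation test) and the oligodendrocyte list (1.57 ± 0.67 against 2.54 ± 0.72, adjusted p = 0.0190, permutation test). Their part in the Sparc value was not tested.

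Other genes of the basement membrane were read from lists set beside the members. For origin, 0.749% of all genes were called and 1.64% of those with at least 10 CPM. Of 24 further components, 2 passed for origin: Npnt, an integrin ligand, was lower (4.32 ± 3.44 CPM in wild-derived, n = 12, against 21.0 ± 13.6 CPM, n = 31; log2 fold change -2.25 ± 0.52, adjusted p = 0.00958), and Lamc3, the γ3 laminin chain, was higher (230 ± 109 against 141 ± 54.0 CPM; 0.70 ± 0.18, adjusted p = 0.0353). Of 18 proteases and inhibitors tested, Plat, the tissue plasminogen activator, passed (221 ± 114 against 105 ± 33.0 CPM; 1.07 ± 0.18, adjusted p = 9.02e-05). Plat was carried by CAST/EiJ (314 ± 71.2 CPM, n = 6), since WSB/EiJ stood at 129 ± 56.0 CPM (n = 6). Npnt averaged 5.82 ± 2.49 CPM in CAST/EiJ and 2.81 ± 3.79 CPM in WSB/EiJ (n = 6 each). It was also low in long-inbred C57BL/6J (9.98 ± 11.0 CPM, median 5.54, n = 6), and the other long-inbred strains averaged 17.2 to 33.2 CPM. Of 15 receptors, the syndecan Sdc3 passed (507 ± 215 against 341 ± 72.8 CPM; 0.57 ± 0.14, adjusted p = 0.0195). Sdc3 averaged 618 ± 266 CPM in WSB/EiJ and 395 ± 35.8 CPM in CAST/EiJ, and Lamc3 273 ± 147 and 186 ± 12.7 CPM (n = 6 each). Against the mean of the other strains both passed in WSB/EiJ (Sdc3 0.83, adjusted p = 0.000884, and Lamc3 0.89, adjusted p = 0.0105), where the pericyte list was also higher. The part of pericyte RNA was not tested. None of 19 genes of assembly and modification passed for origin.

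The test for any strain difference called 2.68% of all genes and 6.68% of those with at least 10 CPM. Beside this, 6 of 24 components passed, led by Lama3 (adjusted p = 0.000177), Sparcl1 (0.0181) and Ntn4 (0.0186). Lama3, another laminin α chain, averaged 1.73 ± 3.14 CPM in CAST/EiJ (SD, n = 6) and 69.4 ± 29.3 CPM in DBA/2J (n = 5). It was also low in 129S1/SvImJ (5.57 ± 8.41 CPM, n = 9) and WSB/EiJ (14.4 ± 14.6 CPM, n = 6). The remaining strains averaged between 31.2 CPM in NOD/ShiLtJ and 54.6 CPM in A/J. Among receptors 3 of 15 passed: Sdc3 (0.0198), the laminin-binding integrin chain Itga6 (0.0265) and Sdc4 (0.0424). Plat was the 1 of 18 proteases and inhibitors (3.40e-06), and 0 of 19 assembly genes passed, the nearest being Serpinh1, the collagen chaperone (0.0980).

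Of all genes, 2.85% were called for sex, and 8.79% of those with at least 10 CPM. Among the lists, shares were near or below the latter. Female EC were higher in 2 of 24 components: Sparcl1, a relative of Sparc (5114 ± 2008 CPM, n = 16, against 3217 ± 798 CPM, n = 27; 0.67 ± 0.11, adjusted p = 2.07e-05), and Tinagl1, a matrix glycoprotein (203 ± 65.0 against 123 ± 45.7 CPM; 0.72 ± 0.16, adjusted p = 0.00295). They were also higher in 1 of 19 assembly genes, P4hb, a subunit of the prolyl 4-hydroxylase that modifies collagen (242 ± 69.0 against 165 ± 58.0 CPM; 0.55 ± 0.15, adjusted p = 0.0228). No protease, inhibitor or receptor passed for sex. By title tag, with 1.06% of all genes called and 3.30% of those with at least 10 CPM, Tinagl1 (0.73 ± 0.18, adjusted p = 0.0201) and the collagen-binding integrin chain Itga1 (0.43 ± 0.11, adjusted p = 0.0466) were higher in high libraries, and no gene of the 4 lists passed between regions.

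Genes with the pattern most like a member's were ranked by r of log2(CPM + 1) over 43 libraries among 8679 genes with a mean of at least 10 CPM. They were Tbx1 (r = 0.77), Synpo2 (0.73) and 9930111J21Rik2 (0.70) for Fn1, and Tap2, Flna and P4hb (0.68 to 0.69) for Col4a1. For Sparc they were Ly6c2 (0.77), Eif4g2 (0.74) and Wwtr1 (0.74), for Lama4 Gpr146 (0.72), Paqr7 (0.71) and Flvcr2 (0.71), and for Hspg2 Cx3cl1 (0.71), Rin3 (0.68) and Adam15 (0.68). These are descriptions, and the points share strain and depth.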

How the data were processed

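RNA of sorted brain EC was sequenced in 43 libraries. Per the study's methods, rRNA-depleted stranded single-end libraries were aligned to mm10, the C57BL/6J reference, with HISAT2 2.1.0, processed with SAMtools 1.9 and counted with featureCounts of Subread 1.4.4. The strand setting is not given in the sources used here. The authors deposited raw counts for 54532 genes, without normalization. The effect of this reference on counts of other strains was not tested.

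Counts were scaled by TMM to CPM, and the 29120 genes that reached 0.5 CPM in 1 library or more entered edgeR 4.0.16 (R 4.3.3) and its two-sided quasi-likelihood F test. P-values were adjusted by Benjamini-Hochberg, with 0.05 as the threshold, and models held no covariates, as in the study, which used DESeq2. DESeq2 1.42.0 was an alternative. In fits with covariates, a gene was dropped where its fitted count ran past 5 times its highest count. On simulated counts, false calls exceeded the nominal share in all 5 comparisons, most in the test across strains, and lay mainly in genes under 10 CPM. Marker lists were compared as means of log2(CPM + 1) by permutation (100000 resamples, or exact for groups under 10), adjusted over 77 tests in Python 3.11.15.

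The members and lists were chosen with earlier results of these data known. All members are named in every comparison. Of each other list, genes past the threshold were named, at most 4 per comparison, and for strain the 3 with the smallest p.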

Additional observations from a re-analysis of the deposited data

Results flagged for a closer look

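The levels of each member in each strain (70 groups) were tested on log2(CPM + 1) for a library that stood apart from the rest of its strain, by Dixon's ratio of the gap to the range at the 95% level. A library did so in 3 groups, and chance gives about 1 in 20. Lamb1 was at 0 CPM in the A/J male hippocampus library titled low, with the other 4 A/J libraries between 23.4 and 36.7 CPM (gap over range 0.880). Lamc1 was at 262 CPM in the DBA/2J female hippocampus library titled high, with the others at 383 to 405 CPM (gap over range 0.873). Sparc was at 1976 CPM in the A/J male cortex library titled high, with the others at 2386 to 2531 CPM (gap over range 0.761).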

How the results depend on the processing

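Of 841 single tests recomputed under an alternative, 752 kept their side of the threshold and any direction, and of 174 counts and ratios 129 stayed within 1.5 times or 1 SD. Where the rest changed, the cause was not tested. No paired analysis was possible because the labels give no mouse of origin and number only 4 libraries, all of 129S1/SvImJ. Regions were compared within blocks of strain, sex and tag instead. For origin, 218 genes were called, against 395 with DESeq2, 123 in male libraries, 40 in cortex, 68 in hippocampus and 7 with counts summed per strain. Of the members, 2 were called, against 4 with sex and region as covariates, 0 in cortex or with summed counts, and 1 with DESeq2's size factors, with no filter, in male libraries, in hippocampus and without 129S1/SvImJ, A/J, DBA/2J or NOD/ShiLtJ. Uncalled members turned sign: Lama5 (0.084 summed, 0.063 without CAST/EiJ), Nid1 (0.087 in cortex, 0.23 without CAST/EiJ), Hspg2 (0.036 in cortex, 0.0047 summed, 0.10 without WSB/EiJ) and Sparc (-0.32 without CAST/EiJ). Among strains, 781 genes were called, against 1335 with DESeq2 and 474 in male libraries, and 4 members, against 2 with DESeq2's size factors and 2 to 4 on leaving out an A/J or DBA/2J library. Without the A/J female hippocampus library, the calls of Lama4 (adjusted p = 0.0516) and Lamc1 (0.0691) were lost. Summed over single strains, 1859 calls became 815 in male libraries and 3766 with DESeq2. Between regions, 22 genes were called, against 61 with DESeq2, 53 within blocks of strain, sex and tag, and 11 without NOD/ShiLtJ. Member calls were 0 with edgeR and with DESeq2, with 2 members at an unadjusted p under 0.05. Lama4 was positive with no filter (0.0045), at 1 CPM in 5 libraries (3.03e-05), within blocks (0.037) and without CAST/EiJ (0.012), DBA/2J (0.0069) or WSB/EiJ (0.22), and Lama5 was at -0.060 without 129S1/SvImJ. By title tag, 293 genes were called, against 635 with DESeq2, 550 with strain and region, 195 without 129S1/SvImJ, 132 without A/J, 148 without C57BL/6J, 124 without CAST/EiJ and 188 without NOD/ShiLtJ. Member calls were 0 with edgeR and DESeq2, with 1 member (Sparc) at an unadjusted p under 0.05, and 1 with strain and region. Signs turned for Fn1 (0.0011 with the rRNA-like share, 0.037 without 129S1/SvImJ, 0.011 without NOD/ShiLtJ), Lamb1 (-0.011 without WSB/EiJ), Lamc1 (0.020 without 129S1/SvImJ, 0.046 without C57BL/6J), Nid1 (0.030 without C57BL/6J) and Hspg2 (-0.0013 without the WSB/EiJ male hippocampus library titled low). By sex, 830 genes were called, against 59 with the rRNA-like share, 448 in libraries titled high, 532 without 129S1/SvImJ and 515 without DBA/2J. Member calls fell from 2 to 1 with DESeq2, its size factors or the rRNA-like share, in libraries titled high, and without DBA/2J, NOD/ShiLtJ or WSB/EiJ. The call lost was that of Col4a2 with the rRNA-like share and that of Col4a1 in the other cases. Signs turned for Fn1 (-0.087 with DESeq2 and with its size factors, -0.53 with the rRNA-like share, -0.022 without 129S1/SvImJ, -0.11 without WSB/EiJ), Lama4 (0.017 with strain and region, 0.32 with the rRNA-like share, 0.30 without 129S1/SvImJ), Lamc1 (0.17 with the rRNA-like share, 0.11 without 129S1/SvImJ, 0.029 without C57BL/6J) and Sparc (0.66 with the rRNA-like share). Marker lists passed in 9 tests by their mean and in 4 by their median, which lost smooth muscle and venous in CAST/EiJ, arterial in WSB/EiJ, and astrocyte and oligodendrocyte by tag. Depth limits Lamb1 most.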

Other observations

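Some lists leaned one way in a strain without a call in edgeR. In NOD/ShiLtJ, 15 of the 19 assembly and modification genes had a positive log2 fold change against the mean of the other strains, with a median of 0.56 beside -0.13 over all genes tested, and 0 were called. Of all genes, 44.4% were positive there. So were 17 of 24 further components, 12 of 18 proteases and inhibitors and 10 of 15 receptors, whereas 7 of the 10 members were negative. In 129S1/SvImJ, 8 of the 10 members were negative, with a median of -0.25 beside 0.10 over all genes, and 0 were called. Of all genes, 53.8% were positive in this strain. There, 12 of 15 receptors were negative too, beside 12 of 24 further components, 9 of 19 assembly genes and 10 of 18 proteases and inhibitors. Of the 9 libraries of 129S1/SvImJ, 6 were female, and its calls over all genes fell from 426 to 123 with sex and region as covariates. The part of sex in this lean was not tested. Over the 43 libraries, log2(CPM + 1) of Lama4 correlated with the endothelial list at r = 0.60 and that of Sparc with the smooth muscle list at r = 0.57, as descriptions of points that share strain and depth.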
